A study of Mus musculus with 6 samples.

Results

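The corneal endothelial pump and transport genes are 6 genes, Slc4a11, Slc4a4, Atp1b1, Aqp1, Car2 and Cdh2, picked by symbol from 35673 genes counted in mouse cornea. All 6 were found, and all 6 passed the filter on low counts, as did 18804 genes in total. RNA was sequenced from 3 libraries titled Control and 3 titled Cationorm, from male C57BL/6J mice aged 6 to 8 weeks. Cationorm is a cationic oil-in-water emulsion used as an eye drop. The protocol describes contact lens-related dry eye, made with 0.1% benzalkonium chloride (a preservative, 5 µL per eye, 2 times daily) and lens wear for 6 h per day, followed by 14 days of saline, hyaluronic acid or Cationorm drops (5 µL, 2 times daily). The labels give a single batch. Every library, Control included, carries the model's tag CLDE and the treatment entry wild-type, so whether the Control mice went through the model cannot be told from the labels. The labels name the tissue only as cornea, and they do not say whether animals were pooled or which layers the dissection held.

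The corneal endothelium is a single sheet of cells on the inner face of the cornea that keeps the stroma clear by moving fluid out of it. The Na,K-ATPase on its lateral membranes sets up the sodium gradient, bicarbonate enters with sodium through the cotransporter encoded by Slc4a4, and carbonic anhydrase (Car2) interconverts carbon dioxide and bicarbonate. Slc4a11 encodes a membrane transporter of the same family whose loss causes endothelial dystrophy in humans, Aqp1 a water channel, Atp1b1 the β1 subunit of the pump, and Cdh2 the adhesion protein N-cadherin. None of them is limited to this layer: ciliary epithelium, retinal glia, retinal pigment epithelium, lens, vessels and red blood cells are known to use several of them.

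Slc4a4 has alternative starts, known to give forms of the cotransporter that differ at the N terminus, and reads from all of them add to the same number. The 300 bases around each start are shown because the counts below cannot be assigned to either. They come from RefSeq on GRCm38.p6, an older build than those in the submitters' processing notes, and were matched by symbol. Capitals mark CG, searched as those letters (the motif reads the same on both strands).
Slc4a4 upstream start, chr5:88887010-88887309, + strand: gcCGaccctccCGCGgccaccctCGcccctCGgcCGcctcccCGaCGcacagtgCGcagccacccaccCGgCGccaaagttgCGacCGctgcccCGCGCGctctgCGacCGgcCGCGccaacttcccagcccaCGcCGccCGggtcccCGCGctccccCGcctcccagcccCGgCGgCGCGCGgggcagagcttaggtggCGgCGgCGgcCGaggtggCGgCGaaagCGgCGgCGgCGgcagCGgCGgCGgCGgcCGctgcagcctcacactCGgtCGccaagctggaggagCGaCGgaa
Slc4a4 internal start, chr5:89027716-89028015, + strand: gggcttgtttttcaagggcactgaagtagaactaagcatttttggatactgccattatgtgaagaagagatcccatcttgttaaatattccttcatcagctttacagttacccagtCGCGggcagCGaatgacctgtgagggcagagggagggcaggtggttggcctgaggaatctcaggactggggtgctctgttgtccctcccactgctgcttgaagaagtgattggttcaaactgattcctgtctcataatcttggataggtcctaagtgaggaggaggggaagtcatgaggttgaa
The upstream window holds 50 CG and the internal window 3, against a median of 7 over 32851 promoter windows of this length, of which 94.6% hold at least 1. The upstream window had more CG than 99.1% of those windows, and the internal window more than 23.3%. The matched promoters covered 3 of the 6 genes.

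Total counts ran from 32486043 to 39193311 per library, and the smallest count of any member in any library was 504. Levels below are in TMM-normalised CPM, which is read counts scaled to a common library size and corrected for composition, and they are compared between genes only after division by exon length in kilobases. The labelled tissue held Col8a2, a defining collagen of the corneal endothelial basement membrane, in every library. It was at 258, 240 and 205 CPM across Control libraries 1 to 3, against 272, 228 and 225 CPM across Cationorm libraries 1 to 3. Of 13 identity markers of corneal endothelium, 11 were tested, 8 with a fitted log2 fold change (Cationorm minus Control) above 0 and 3 below, with a median of 0.05. The summed level of these markers was 1075 to 1121 CPM across Control, against 1038 to 1199 CPM across Cationorm, and 0 of the 13 was at 0 in every library. The most abundant of them were Tjp1, Col8a2 and Alcam, and the share of the sum from endothelial cells was not tested. Loxhd1 and Agbl1 were too low to test. The samples also held RNA of other cell types, including cells outside the cornea. The 3 most abundant markers of corneal epithelium, Aldh3a1, Krt5 and Krt12, and the retinal photoreceptor markers Gnat1 and Prph2 were present in all 6 libraries. The summed photoreceptor markers were at 5358 to 7967 CPM across Control, against 2063 to 6554 CPM across Cationorm, above the endothelial sum in every library. Lens markers summed to 70.0 to 2652 and 1426 to 5080 CPM.

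Per kilobase of exon, Aqp1 was the most abundant of the 6 genes, with 122 to 158 CPM per kb over the libraries (mean 135), and its range did not overlap with that of any other member. Atp1b1 followed with 24.6 to 33.7 CPM per kb (mean 28.7) and Slc4a11 with 17.3 to 25.9 CPM per kb (mean 21.9), and these ranges overlapped. Car2 spread from 5.86 to 19.9 CPM per kb (mean 13.4) and overlapped with Slc4a11. Slc4a4, at 2.85 to 5.03 CPM per kb (mean 3.84), overlapped with Cdh2, at 2.12 to 2.89 CPM per kb (mean 2.49). Aqp1 ranked 288th and Cdh2 10088th in this measure among the 17908 tested genes with a length (95.2% of those tested). Slc4a4 and Cdh2 have long exon unions of 10815 and 8066 bases, so a short transcript form would be understated by this division.

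The comparison of Cationorm with Control asked whether corneal transcripts differed after the drops. For the pump and transport genes, none of the differences passed the test, and the fitted values ran from -0.79 for Car2 to 0.38 for Slc4a4 on the log2 scale. By the edgeR quasi-likelihood test, 0 of the 6 members and 0 of all 18804 genes (0%) passed at an adjusted p of 0.05. At an unadjusted p below 0.05 there were 0 members and 1641 genes (8.73%). DESeq2 called 64 genes (0.381% of the 16789 with an adjusted p) and 0 members, and limma-voom called 0 genes. The groups overlapped for all 6 members, whereas they did not overlap in 14.8% of all tested genes (all Cationorm libraries above all Control libraries in 8.73%, below in 6.09%). Fitted values were above 0 for 3 members and below 0 for 3, against 51.2% above 0 over all tested genes, and the median over the 6 was 0.04.

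**Figure D1:**
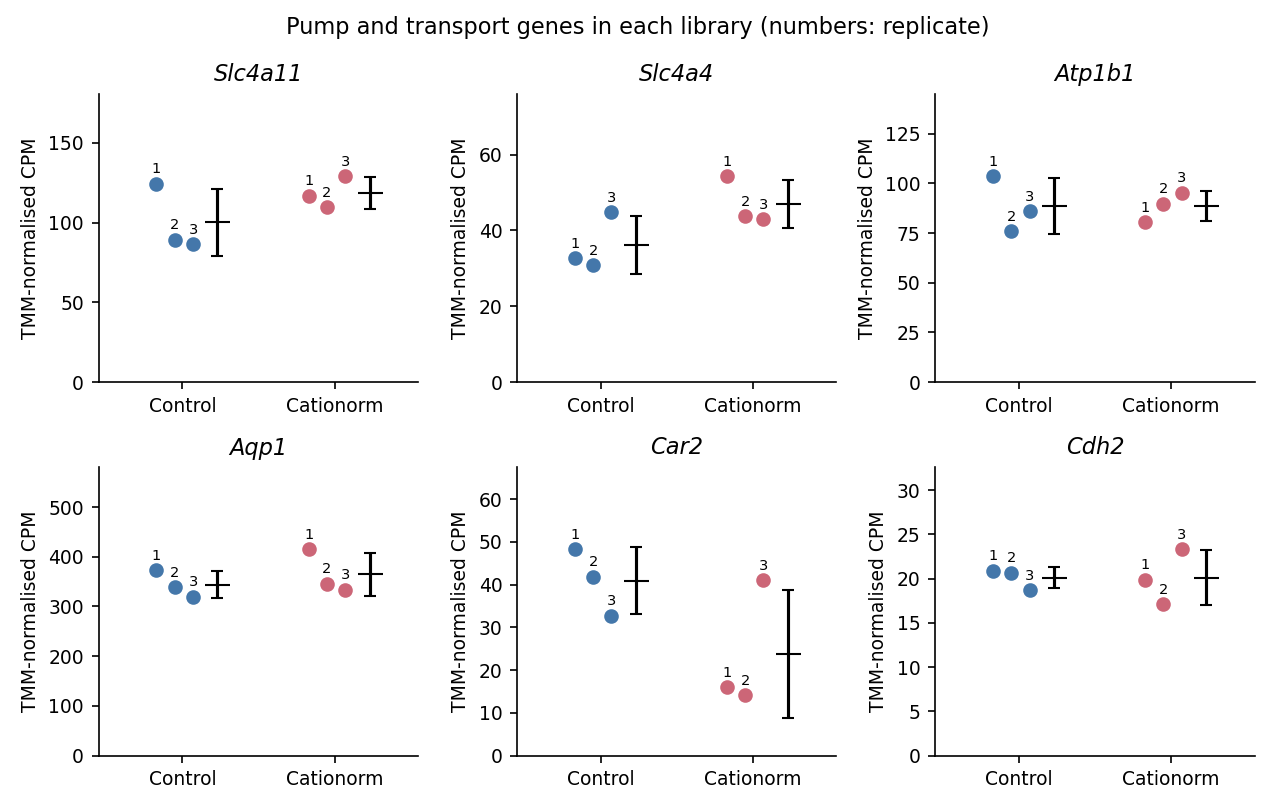
TMM-normalised CPM (vertical axis, from 0) of each member in the 3 Control (blue) and 3 Cationorm (red) libraries, numbered by replicate, with the mean and SD of each group in black. The groups overlap in every panel, and Car2 in Cationorm 1 and 2 sits at 16.0 and 14.2 CPM, below the other 4 libraries.

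Atp1b1, the β1 subunit that carries the catalytic subunit of the pump to the membrane, was at 104, 75.9 and 86.0 CPM across Control libraries 1 to 3, against 80.4, 89.8 and 95.3 CPM across Cationorm libraries 1 to 3. Control held both the highest and the lowest library, and the Cationorm libraries lay between them. The group means were 88.5 ± 14.1 CPM across Control, against 88.5 ± 7.49 CPM across Cationorm (SD, n = 3 each). The fitted log2 fold change was -0.00073 with a 95% interval of -0.29 to 0.29 (adjusted p = 0.999, edgeR). Exons of Atp1b1 share 575 bases (18.7% of its exon length) with Nme7 on the opposite strand in the GRCm38 annotation. The strand setting of the counting is not given in the sources used here, so reads from the shared stretch cannot be told apart. Nme7 itself was counted at 15.6 to 18.5 CPM.

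Slc4a4, which brings bicarbonate into the cell with sodium, was at 32.6, 30.8 and 44.9 CPM across Control libraries 1 to 3, against 54.4, 43.8 and 42.9 CPM across Cationorm libraries 1 to 3. Control 1 and 2 were the lowest libraries and Cationorm 1 the highest, and Control 3 lay among the Cationorm libraries. The means were 36.1 ± 7.67 and 47.0 ± 6.37 CPM (SD, n = 3 each), a ratio of 1.30, and the log2 fold change was 0.38 ± 0.16 (SE; 95% interval -0.0015 to 0.76, adjusted p = 0.550, edgeR). This was the largest fitted value above 0 among the members. Without Control 3 it was 0.57 (adjusted p = 0.185), and over all alternatives the adjusted p ran from 0.185 to 0.862.

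Several lists of markers of other cell types were, like Slc4a4, lowest in Control 1 and 2, and their part in its difference was not tested. Of 13 lists, the summed retinal pigment epithelium markers had the nearest profile (distance 0.12 on the log2 scale, the measure defined with the nearest genes below), with the 6 libraries in the same order as for Slc4a4. These 7 genes had 6 fitted values above 0 and summed to 870 to 1161 CPM across Control, against 1056 to 1197 CPM across Cationorm. Their sum mixes genes that moved less and more than Slc4a4. Around its own log2 mean, Bsg, the most abundant and also described below, ran only from -0.043 to 0.060. The next most abundant, Ttr and Rgr, ran from -0.79 to 0.52 and from -0.95 to 0.58, against -0.41 to 0.41 for Slc4a4. For each 100 CPM of them there were 3.54 to 4.54 CPM of Slc4a4. The blood vascular endothelium markers came next (distance 0.16), with 11 of 11 fitted values above 0 and sums of 97.6 to 181 and 150.1 to 180 CPM. The Schwann cell markers followed (distance 0.18), with 6 of 7 above 0 and sums of 227 to 260 and 257 to 284 CPM. The iris, ciliary body and pigment markers ranked 9th (distance 0.41), with larger differences than Slc4a4: all 12 fitted values were above 0 and 9 of the 12 genes did not overlap between groups. Their sums were 558 to 1341 CPM across Control, highest in Control 3, against 1512 to 1883 CPM across Cationorm, highest in Cationorm 1. In these 4 lists 0 genes passed the threshold and 0 were at 0 in every library. In bulk tissue, fewer cells of a type and less RNA per cell cannot be told apart.

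Slc4a11, the transporter tied to endothelial dystrophy, was at 125, 89.4 and 86.5 CPM across Control libraries 1 to 3, against 117, 110 and 129 CPM across Cationorm libraries 1 to 3. The pair of lowest libraries was Control 2 and 3, and Control 1 lay inside the Cationorm range. The means were 100.1 ± 21.2 and 118.7 ± 9.91 CPM (SD, n = 3 each), a ratio of 1.18, with a log2 fold change of 0.24 ± 0.15 (SE; 95% interval -0.10 to 0.59, adjusted p = 0.578, edgeR). The value moved with single Control libraries: it was 0.43 without Control 1 (adjusted p = 0.844), 0.15 without Control 2 (adjusted p = 0.843) and 0.15 without Control 3 (adjusted p = 0.650). Over all alternatives its adjusted p ran from 0.511 to 0.862. Slc4a11 followed neither the photoreceptor nor the pigment markers in the order of libraries, and among the members Atp1b1 had the profile nearest to it.

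Car2, the cytosolic carbonic anhydrase II, was at 48.3, 41.9 and 32.8 CPM across Control libraries 1 to 3, against 16.0, 14.2 and 41.1 CPM across Cationorm libraries 1 to 3. Cationorm 1 and 2 were below every Control library, while Cationorm 3 lay inside the Control range. The means were 41.0 ± 7.78 and 23.8 ± 15.0 CPM (SD, n = 3 each), a ratio of 0.580. The log2 fold change was -0.79 ± 0.40 (SE; 95% interval -1.72 to 0.15, adjusted p = 0.550, edgeR). Car2 had the widest spread of the members within Cationorm, with a coefficient of variation of 63.2% against a median of 7.04% over genes of at least 5 CPM.

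The call for Car2 turned on Cationorm 3. Without that library its log2 fold change was -1.44 and it passed the test (adjusted p = 0.0284, edgeR). That fit called 350 of 19170 genes, 335 of them lower in Cationorm and 15 higher. Over all alternatives the adjusted p ran from 0.0284 to 0.862. The photoreceptor markers moved with Car2, and their part in its difference was not tested. All 12 of them were tested, with fitted values below 0 for 12, 0 of them past the threshold with all 6 libraries, and 0 at 0 in every library. Their summed level was 5358 to 7967 CPM across Control, against 2063 to 6554 CPM across Cationorm, and the 6 libraries stood in the same order as for Car2. While this sum varied 3.86-fold over the libraries, the amount of Car2 for each 100 CPM of it stayed between 0.601 and 0.688 CPM, a 1.14-fold range. Of the Muller glia markers, another known source of Car2 in the retina, the potassium channel gene Kcnj10, chosen after its values were seen, was at 8.63, 6.32 and 5.24 CPM across Control libraries 1 to 3, against 2.51, 2.34 and 8.86 CPM across Cationorm libraries 1 to 3. The list was mixed: Slc1a3, Abca8a and Aqp4 were, like Kcnj10 and Car2, lowest in Cationorm 1 and 2. Vim and Dkk3, among its 3 most abundant, were instead highest in Cationorm 1 and 2, and Glul and Rlbp1 had neither pattern. The part of Muller glia in the difference of Car2 was not tested. The summed Muller glia list was at 2536 to 2807 CPM across Control, against 2589 to 2743 CPM across Cationorm. Of its 8 fitted values, 5 were below 0 and 3 above. Of the red blood cell list, another known source of carbonic anhydrase, the sum was 51.1 to 140 CPM across Control, against 75.5 to 111 CPM across Cationorm. Slc4a1, the anion exchanger of red blood cells, was too low to test.

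**Figure D2:**
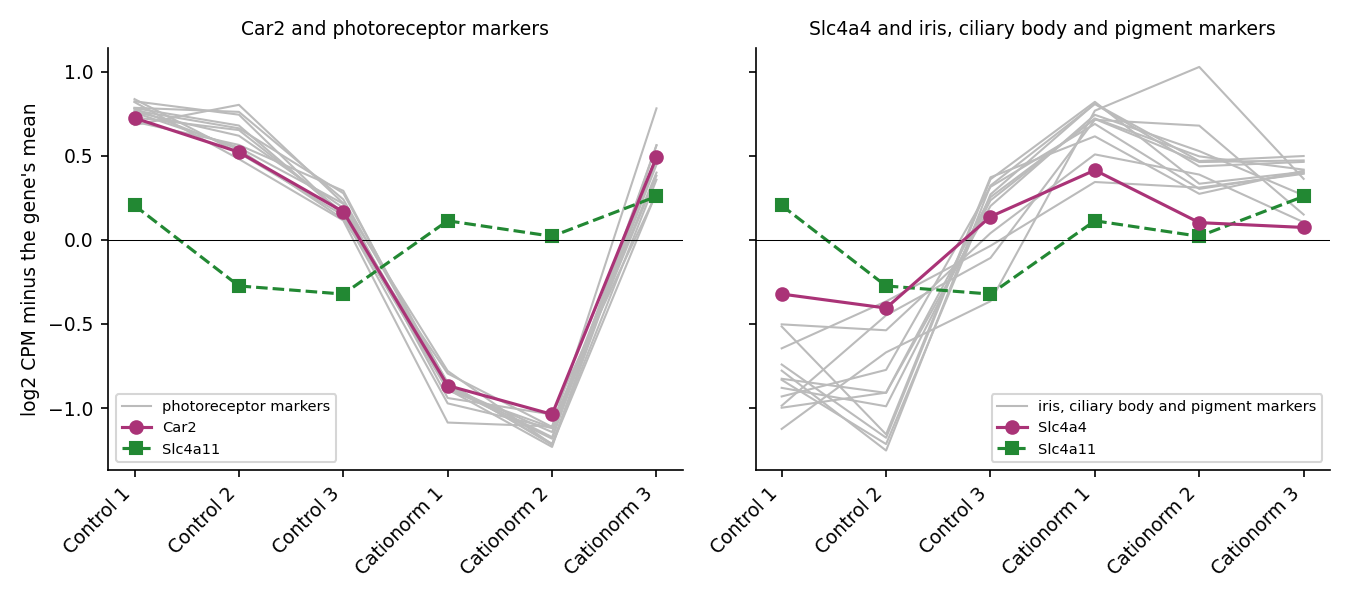
Log2 CPM in each library minus the gene's mean over the 6 libraries (vertical axis) for Car2 with the 12 photoreceptor markers (left, grey) and for Slc4a4 with the 12 iris, ciliary body and pigment markers (right, grey), with Slc4a11 in green for comparison. Lines join the values of a gene and imply no order of libraries; Car2 lies within the photoreceptor bundle, low in Cationorm 1 and 2 and high in Cationorm 3.

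Aqp1, the water channel of corneal endothelium and keratocytes, was at 372, 339 and 320 CPM across Control libraries 1 to 3, against 415, 346 and 334 CPM across Cationorm libraries 1 to 3. Only Cationorm 1 lay above every Control library. The means were 344 ± 26.5 and 365 ± 43.7 CPM (SD, n = 3 each), and the log2 fold change was 0.08 ± 0.10 (SE; 95% interval -0.15 to 0.32, adjusted p = 0.771, edgeR). Without Cationorm 1 the fitted value was -0.018. Of the 13 lists of cell type markers, the summed corneal endothelium identity list had the profile nearest to that of Aqp1 (distance 0.084). There were 29.8 to 34.6 CPM of Aqp1 for each 100 CPM of that list. Corneal epithelium (0.11) and Muller glia (0.13) came next. For Slc4a11, Atp1b1 and Cdh2 the nearest list was instead Muller glia, at 0.21, 0.14 and 0.15. The corneal endothelium list ranked 4th, 3rd and 2nd for these genes. Of the 13 sums, those of Muller glia, corneal epithelium and corneal endothelium varied least over the libraries, by 1.11-, 1.12- and 1.15-fold. Any gene with a small spread lies near such flat sums, so these ranks do not tie a member to a cell type.

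Cdh2, the N-cadherin of endothelial cell contacts, was at 20.9, 20.7 and 18.7 CPM across Control libraries 1 to 3, against 19.9, 17.1 and 23.3 CPM across Cationorm libraries 1 to 3. The Control libraries lay inside the Cationorm range. The means were 20.1 ± 1.20 and 20.1 ± 3.11 CPM (SD, n = 3 each), with a log2 fold change of -0.00068 and a 95% interval of -0.30 to 0.30 (adjusted p = 0.999, edgeR). Cdh2 and Aqp1 had the smallest spread within Control, with coefficients of variation of 5.99% and 7.71%, against a median of 8.48% over genes of at least 5 CPM.

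**Figure D3:**
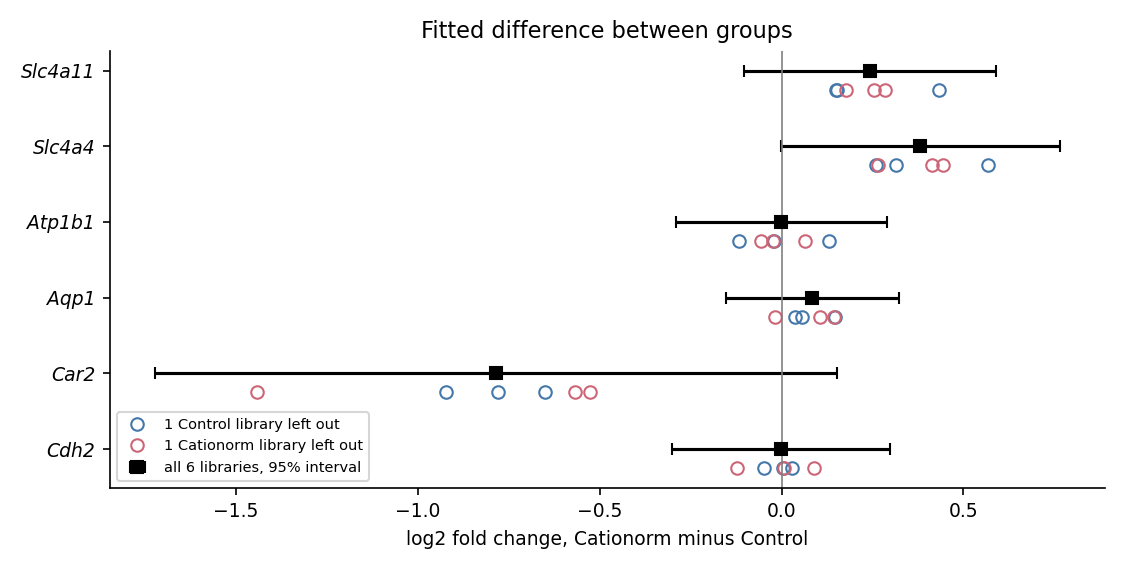
Fitted log2 fold change of each member (horizontal axis, Cationorm minus Control) with all 6 libraries and its 95% interval (black), and with 1 Control (blue) or 1 Cationorm (red) library left out. All 6 intervals include 0, and the value for Car2 runs from -1.44 to -0.53 as libraries are left out.

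Likeness between profiles was measured as the root mean square distance between log2 CPM values over the 6 libraries, each gene centred on its own mean. Each member was compared with 11661 tested genes with a mean of at least 5 CPM, leaving out predicted genes named Gm or Rik and the member itself. Car2 was nearest to Pde6g, a subunit of the rod phosphodiesterase, at a distance of 0.023, then to Fbxl16 and Sgip1 at 0.034 and 0.044. The median distance of the compared genes from Car2 was 0.72. Slc4a11 was nearest to the G protein subunit genes Gng7 (0.076) and Gnal (0.095) and to Chst5 (0.096), a sulfotransferase of the keratan sulfate pathway in mouse cornea. Slc4a4 was nearest to Scara3, Thnsl2 and Inpp5k, each at 0.051. For Atp1b1, Aqp1 and Cdh2 the nearest genes were Alk, Ccdc88c and Kcnab1, at distances of 0.034, 0.037 and 0.032. Among the members themselves the nearest pair was Slc4a11 and Atp1b1, at 0.17, where Atp1b1 ranked 223rd of the 11661 genes by nearness to Slc4a11. Seen from Atp1b1 this distance is less unusual. The median distance of the compared genes was 0.20 from Atp1b1, against 0.26 from Slc4a11. Cdh2, at 0.18 from Atp1b1, ranked 4032nd by nearness to Atp1b1. The farthest pair was Slc4a4 and Car2, at 0.92.

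Of the other genes of these families, 75 were listed in 6 groups and 66 were tested, with 0 past the threshold in either direction. Fitted values were above 0 for 39 and below 0 for 27. The groups did not overlap in 12 of the 66, beside 14.8% over all 18804 tested genes. The listed genes are described by role below, beside a median of 0.0055 over all tested genes.

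Among 12 tested subunits and FXYD regulators of the Na,K-ATPase, 6 fitted values were above 0 and 6 below, with a median of 0.03. Atp1b3, the β3 subunit, was at 403 to 527 CPM across Control, against 483 to 562 CPM across Cationorm. Its log2 fold change was 0.26 ± 0.12 (SE; adjusted p = 0.550, edgeR). Per kilobase Atp1b3 averaged 206 CPM, above Atp1b1 at 28.7 CPM per kb. Atp1b2, the β2 subunit known from photoreceptors and glia, was, like Car2, lowest in Cationorm 1 and 2. It was at 230, 174 and 178 CPM across Control libraries 1 to 3, against 99.3, 72.4 and 211 CPM across Cationorm libraries 1 to 3. Its log2 fold change was -0.61 ± 0.37 (SE; adjusted p = 0.579, edgeR). The photoreceptor markers given with Car2 were also lowest in Cationorm 1 and 2, and their part in the result was not tested.

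Of 7 tested SLC4 relatives, 4 had fitted values above 0 and 3 below, with a median of 0.02. The chloride-bicarbonate exchangers Slc4a2 (0.10 ± 0.07, SE) and Slc4a3 (0.02 ± 0.18) overlapped between groups. Slc4a5, an electrogenic cotransporter close to Slc4a4, was at 28.4, 27.2 and 63.3 CPM across Control libraries 1 to 3, against 83.7, 72.2 and 70.3 CPM across Cationorm libraries 1 to 3. Its groups did not overlap, Control 3 lay closest to the Cationorm libraries, and its log2 fold change was 0.93 ± 0.32 (adjusted p = 0.550, edgeR). The 6 libraries stood in the same order for the summed iris, ciliary body and pigment markers given with Slc4a4, and their part was not tested. Slc4a7, an electroneutral cotransporter, went the other way, at 36.8, 44.1 and 31.6 CPM across Control, against 22.0, 17.5 and 30.5 CPM across Cationorm. Its log2 fold change was -0.69 ± 0.21 (adjusted p = 0.550). Slc4a8, another electroneutral relative, had a log2 fold change of -0.48 ± 0.28. Both were lowest in Cationorm 1 and 2, as were Car2, Atp1b2 and the summed photoreceptor markers (2631 and 2063 CPM in these libraries), whose part in the result was not tested.

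Of 14 partners of the pump in pH, chloride and lactate handling, 7 fitted values were above 0 and 7 below, with a median of -0.01. Basigin (Bsg), the chaperone of lactate transporters, overlapped between groups, at 519 to 556 and 517 to 542 CPM, as was the chloride loader Slc12a2, at 357 to 389 and 344 to 403 CPM. The chloride-proton exchanger Clcn3 had a log2 fold change of -0.04 ± 0.07. The glucose transporter Slc2a1 was at 136, 133 and 193 CPM across Control, against 214, 195 and 185 CPM across Cationorm (0.36 ± 0.15). The potassium channel Kcnj13, known from pigment and ciliary epithelia, was at 1.24 to 3.05 and 3.50 to 5.87 CPM, with a log2 fold change of 1.17 ± 0.38. Neither passed (adjusted p = 0.550 for each). Both were lowest in Control 1 and 2, as were the summed iris, ciliary body and pigment markers (618 and 558 CPM in these libraries), whose part in the result was not tested.

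Of 7 tested aquaporins other than Aqp1, 3 fitted values were above 0 and 4 below, with a median of -0.11. The epithelial water channels Aqp5 and Aqp3 exceeded Aqp1 per kilobase, at means of 1754 and 1126 CPM per kb against 135. Their log2 fold changes were -0.11 ± 0.07 and 0.03 ± 0.06 (SE; adjusted p = 0.598 and 0.861, edgeR). Mip, the water channel of lens fibres, ranged from 0.775 CPM in Control 1 to 216 CPM in Cationorm 3. These libraries had the lowest and the highest sum of lens markers (70.0 and 5080 CPM), a sum that includes Mip itself. Aqp4, of glia, and Aqp2 were at 9.01 to 13.5 and 3.62 to 6.07 CPM over the libraries, with log2 fold changes of -0.17 ± 0.17 and -0.29 ± 0.19.

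Of 13 tested carbonic anhydrases other than Car2, 8 fitted values were above 0 and 5 below, with a median of 0.12. Car3 was the most abundant, at 210 to 280 CPM across Control, against 246 to 308 CPM across Cationorm (log2 fold change 0.12 ± 0.13, SE; adjusted p = 0.728, edgeR). The mitochondrial Car5b was at 103 to 107 and 105 to 119 CPM. Car14, a membrane-bound form, was at 25.5, 29.5 and 36.4 CPM across Control, against 42.5, 43.4 and 40.1 CPM across Cationorm, with no overlap and a log2 fold change of 0.46 ± 0.13 (adjusted p = 0.550). It too was lowest in Control 1 and 2, like the iris, ciliary body and pigment markers, whose part was not tested. The membrane form Car12 and the cytosolic Car13 had log2 fold changes of 0.23 ± 0.28 and -0.06 ± 0.30. None of the tested forms passed the threshold, and the fitted value of Car2 was below that of every one of them.

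Of 13 tested cadherins and catenins, 11 fitted values were above 0 and 2 below, with a median of 0.15. The contact genes of the epithelium were far more abundant per kilobase than Cdh2, with means of 106 CPM per kb for E-cadherin (Cdh1) and 292 for plakoglobin (Jup), against 2.49. The α-catenin Ctnna1 was at 520 to 620 CPM across Control, against 639 to 699 CPM across Cationorm, and β-catenin (Ctnnb1) at 463 to 531 and 543 to 564 CPM. Neither overlapped between groups, with log2 fold changes of 0.27 ± 0.08 and 0.16 ± 0.07 (SE; adjusted p = 0.550 for each, edgeR). Cdh1 (0.17 ± 0.09), Jup (0.02 ± 0.07) and Ctnnd1 (0.02 ± 0.10) overlapped.

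**Figure D4:**
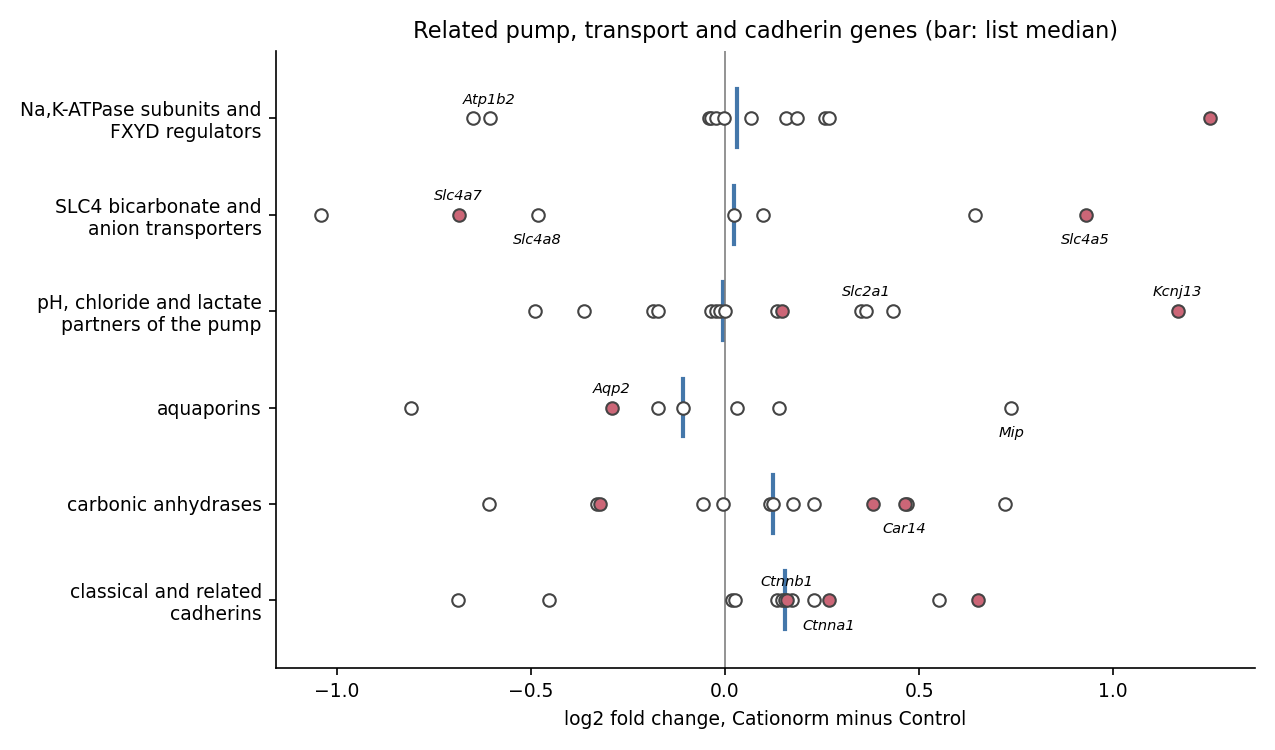
Fitted log2 fold change (horizontal axis, Cationorm minus Control) of the 66 tested relatives in 6 groups of genes, with the median of each group as a blue bar. Filled points are the 12 genes whose groups did not overlap, among them Slc4a5 and Kcnj13 to the right and Slc4a7 to the left.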

How the data were processed

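The authors deposited unnormalised counts in whole numbers for each gene symbol, with 1 column per library, per the file headers. RNA was extracted with TRIzol and made into mRNA-enriched TruSeq libraries, per the labels' protocols. The submitters' processing notes list DESeq2, GRCm39 and mm39 with no role. The aligner, the counting tool and its strand option were not given in the sources used here. Between 62.2% and 65.1% of values from 1 to 20 were even in each library, so a fragment may have added more than 1 count.

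Groups came from the titles. Separate animals are not stated, so p-values measure only how these samples spread, possibly for technical reasons. Counts were filtered with filterByExpr, scaled by TMM and tested with edgeR 4.0.16 (glmQLFit, glmQLFTest) in R 4.3.3, with Benjamini-Hochberg adjustment over 18804 genes at 0.05. Standard errors came from the fold change and F statistic. A count of 0 allows up to 0.0765 to 0.0923 CPM (3 counts, counting error only). Exon lengths and overlapping genes came from GENCODE M21 (GRCm38), matched by symbol. The procedure was tested on simulated data. Alternatives included DESeq2 1.42.0 and limma 3.58.1.

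Members and lists were chosen with earlier results of these data known. Named relatives were the 5 most abundant of each pathway list and the 1 with the smallest p, and for marker lists the 3 most abundant. Some of the genes this rule selects are not reported here. Lim2, Ahsp and Chil1 were not matched by symbol and not analysed here. The order of libraries and the nearest marker list were examined after the data were seen.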

Additional observations from a re-analysis of the deposited data

How the results depend on the processing

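Under 15 alternatives, Slc4a11 and Slc4a4 kept fitted values above 0 and Car2 below 0 in all 15. Without Cationorm 3, Car2 passed the threshold (-1.44, adjusted p = 0.0284, edgeR), and it passed in none of the other 14. Leaving out 1 library at a time moved the count of genes called from 0 to 350: 1 without Control 2, 8 without Control 3 and 350 without Cationorm 3. DESeq2 called 64 genes. Leaving out 1 library gave ranges of 0.15 to 0.43 for Slc4a11, 0.26 to 0.57 for Slc4a4, -0.12 to 0.13 for Atp1b1, -0.018 to 0.15 for Aqp1, -1.44 to -0.53 for Car2 and -0.12 to 0.090 for Cdh2. The sign changed for Atp1b1 without Control 1 or Cationorm 1, for Aqp1 without Cationorm 1, and for Cdh2 without Control 1, Control 2, Cationorm 1 or Cationorm 2. The cause of these shifts was not tested.

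Atp1b1, near 0, changed sign with limma-voom (0.0073) and with the replicate block (0.0082). The replicate number as a block called 0 genes and gave 0.26 for Slc4a11, 0.39 for Slc4a4, 0.081 for Aqp1, -0.96 for Car2 and -0.010 for Cdh2, and it changed no call. The numbers were not shown to pair the libraries: same-numbered libraries correlated at -0.18, -0.31 and -0.16 in their deviations from the group means, and no library correlated best with its own number. With limma-voom sample weights Slc4a11 was at 0.15 and Car2 at -1.15. Every member had at least 504 counts in every library.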

Other observations

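Set against Col8a2, a collagen of the endothelial basement membrane, the members differed in how steady they were. Aqp1 was at 1.45, 1.42 and 1.56 CPM for each CPM of Col8a2 in Control 1 to 3 and 1.52, 1.52 and 1.48 in Cationorm 1 to 3. Slc4a11 was at 0.483, 0.373 and 0.421 in Control and 0.429, 0.481 and 0.573 in Cationorm. Car2 was at 0.187, 0.175 and 0.160 in Control and 0.0587, 0.0623 and 0.182 in Cationorm, so Cationorm 1 and 2 were also the lowest libraries on this scale. The choice of Col8a2 was made after the data were seen, and no test was run on these ratios.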
